A study of Mus musculus with 4 samples.

Results

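NR6A1 sites that lie close together are described here: genomic regions found in both replicates that follow each other in groups of 3 or more. Peaks of the NR6A1 replicates that overlapped by at least 1 bp were merged into regions, regions with a peak of each replicate were called shared, and shared regions no more than 10 kb apart were joined into clusters. This gave 993 regions in 292 clusters, out of 9009 shared regions and 28444 regions in either list. The members were chosen by presence in both lists and by position, so their number, spacing and scores are given as a description, with no test.

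The lists come from chromatin immunoprecipitation and sequencing (ChIP-seq) in a murine mesenchymal stem cell (MSC) line of strain C57BL/6, immortalized and monoclonal, with Dicer f/f alleles and called Dicer WT in the labels. In the NR6A1 group (n = 2) the cells carried a pMMP-puro retrovirus for Flag-HA-NR6A1, and in the vector group (n = 2) the virus without it. All 4 libraries were made from puromycin-selected cultures fixed with formaldehyde for 10 min, with 5 µg of an antibody to the HA tag. The tagged protein is expressed from a virus in clonal cells, so the sites are those of added NR6A1. The vector libraries enter no value here, and no background of the HA antibody stands beside the values below. The labels do not say whether the replicates came from separate infections. Peak lists hold no expression, so the labelled cell type could not be set against marker genes.

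NR6A1, also called germ cell nuclear factor, is an orphan nuclear receptor of the early embryo and the germ line. It binds as a dimer to a direct repeat of AGGTCA with no base between the repeats, or to an extended form of the single site, and is best known as a repressor of Pou5f1 (Oct4) in differentiating embryonic stem cells. According to the series title, its gene is repressed by the microRNA let-7 in adult fibroblasts. Regulatory sites of many factors gather at genes with large control regions, of which the Hox clusters are the textbook case.

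Replicate 1 had 21507 peaks and replicate 2 had 16160, and 31.7% of the merged regions were found in both. Each peak carries the authors' score, which was read here as the log-transformed p-value of the peak caller MACS, a reading that no source states. It starts just above 200 and depends on the depth and background of its own library, and read depth is unknown from these lists. Scores at or above 3100 were treated as equal, because many peaks carry exactly 3100. Positions are on mm9, counted from 1. The lists name no genes and no annotation of mm9 was used, so genes are named only where their place in mm9 is general knowledge, as background to the position.

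The cluster with the most regions held 12 within 56.0 kb, at chr6:52154124-52210125, in the HoxA genes. Hox genes encode homeodomain transcription factors that set position along the body axis and in the limb. This stretch is the 5′ side of the gene cluster, with Hoxa5, Hoxa6, Hoxa7, Hoxa9, Hoxa10, Hoxa11 and Hoxa13. In the RefSeq gene order of the mouse, Mir196b lies between Hoxa9 and Hoxa10. Its mature 5′ arm is shown beside let-7a, a member of the microRNA family of the series title, because both are microRNAs known for a role in developmental timing or patterning. Letters are from RefSeq (GRCm38.p6), and capitals mark the seed, bases 2 to 8.
mmu-miR-196b-5p: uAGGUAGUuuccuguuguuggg
mmu-let-7a-5p: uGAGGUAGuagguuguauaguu
The longest run of letters they share is AGGUAGU, 7 bases, at positions 2 to 8 of miR-196b and 3 to 9 of let-7a. The peak lists say nothing of the activity of either.

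Of the 12 HoxA regions, 5 had a score of 1000 or more in both replicates. At chr6:52189875-52191603 the scores were 2834.45 in replicate 1 and 2562.68 in replicate 2. The region at chr6:52206845-52207682, near the outer end that holds Hoxa13, had 2186.07 and 2813.72. These were the highest scores of the cluster, the former in replicate 1 and the latter in replicate 2. The other 3 were chr6:52162446-52163808 with 1485.62 and 1892.14, chr6:52171495-52172470 with 1683.86 and 1019.98, and chr6:52182967-52184543 with 1006.52 and 1360.42. The region with the least like scores was chr6:52175870-52177363, at 2396.78 in replicate 1 and 801.95 in replicate 2. The remaining 6 regions were below 1000 in both lists, down to 238.09 in replicate 1 and 308.85 in replicate 2. Between them lay 2 regions of replicate 1 only, with scores of 220.7 and 242.75, and 4 of replicate 2 only, with scores from 262.91 to 603.97. The single-list regions were thus low beside the strong shared ones, although 603.97 was above the lowest shared score of replicate 2.

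**Figure D1:**
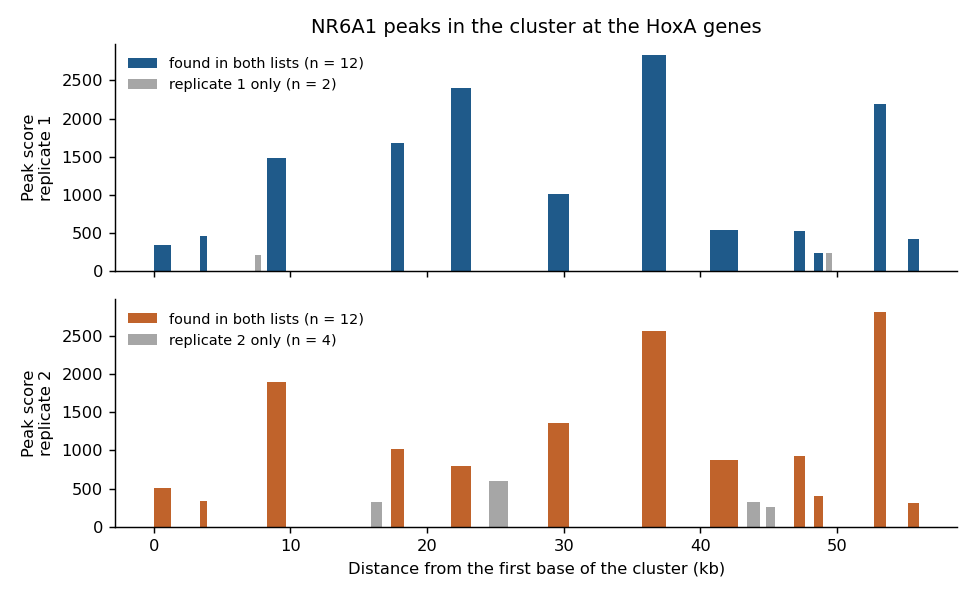
Authors' peak score (y axis) of each region in the cluster at the HoxA genes against distance from its first base in kb (x axis), replicate 1 above and replicate 2 below; bar width is the width of the region. Coloured bars are the 12 regions found in both lists and grey bars are the 2 and 4 found in a single list. All grey bars are below 1000, but in replicate 2 the highest of them, at 603.97, is above the lowest shared region, at 308.85.

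Clusters of 6 or more regions numbered 11 and held 75 regions. After HoxA came 8 regions within 25.1 kb at chr10:79603880-79629016, around Midn and Cirbp. Cirbp encodes a cold-inducible RNA-binding protein. The widest region there, chr10:79622788-79625105, had 1915.85 in replicate 1 and 2685.32 in replicate 2, the highest in both. At chr10:79610460-79612115 the scores were 1401.22 and 1133.2. The other 6 regions were between 202.76 and 831.09 in replicate 1 and between 210.94 and 798.78 in replicate 2, so this cluster had a pair of strong sites among weak neighbours.

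A cluster of 7 regions over 31.1 kb lay at chr11:8574645-8605766, next to Tns3, which encodes tensin 3, a focal adhesion protein that links integrins to actin. The strongest sites were the last 3: chr11:8597519-8598276 with 1629.26 in replicate 1 and 1152.79 in replicate 2, chr11:8603620-8604439 with 1117.01 and 772.5, and chr11:8604940-8605766 with 1539.05 and 2218.59. The 4 regions before them were below 500 in replicate 1 and between 284.26 and 767.59 in replicate 2.

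Upstream of Cdkn1a, which encodes a cyclin-dependent kinase inhibitor of the p53 response, 6 regions lay at chr17:29183882-29201307. At chr17:29197560-29198454 the score was 3100 in replicate 1 but 687.1 in replicate 2. At chr17:29193088-29193824 the order was the reverse, with 434.68 and 1152.79. The region at chr17:29200494-29201307 had like scores, 1080.89 and 1009.63. The replicates thus placed the highest score of this cluster on different regions.

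Malat1 and Neat1, neighbouring genes of abundant nuclear noncoding RNAs, each had a cluster, with 24.0 kb between them. The Malat1 cluster at chr19:5786337-5818478 held 6 regions, of which chr19:5802240-5803965 was the highest in both replicates, at 1269.27 and 1496.91. Its other 5 regions were at 593.19 or less in replicate 1 and 956.73 or less in replicate 2. At Neat1, the scaffold RNA of paraspeckles, 4 regions filled most of chr19:5842494-5850619, with gaps of 90 to 522 bp. Their scores ran from 547.94 to 1436.96 in replicate 1 and from 564.4 to 1839.81 in replicate 2, so none was near the minimum of the lists. Chr19:5842494-5846396 was 3903 bp wide and joined 3 replicate 1 peaks to 1 of replicate 2.

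Neighbouring clusters were also found at Mcl1 and Ecm1. The cluster of 3 beside Mcl1, an anti-apoptotic Bcl2-family gene, at chr3:95467750-95481189 ended 10554 bp before a cluster of 6 at chr3:95491744-95511990. The latter lies in the stretch that holds Adamtsl4 and Ecm1, which encode extracellular matrix proteins. The leading region of the Mcl1 cluster had 1474.72 in replicate 1 and 1501.58 in replicate 2. That of the second, chr3:95491744-95492677, had 2461.89 and 1681.17. They are separate clusters under the limit of 10 kb.

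Irf2bp2, which encodes a transcriptional corepressor, had a cluster at the gene. Another lay more than 100 kb from that cluster, and a link of the distant one to the gene was not tested. The near cluster, chr8:129117807-129138582, held 3 regions, and its leading region was 3124 bp wide with 1577.25 in replicate 1 and 3100 in replicate 2. The distant cluster, chr8:129350016-129377454, held 6. Its leading region had 2164.2 and 3100, and the next had 1649.65 and 1983.91.

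A further 4 clusters of 6 lay where no gene is named here. At chr14:69874914-69905120 the leading regions had 1346.06 in replicate 1 and 2677.24 in replicate 2, in different places. At chr5:31904672-31933001 a single region led in both, at 1847.3 and 3100. At chr17:84378215-84400912 no region reached 1000 in both lists, although replicate 1 reached 2153.72. At chr11:51665658-51695441 the highest scores were 1022.21 and 1535.06.

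**Figure D2:**
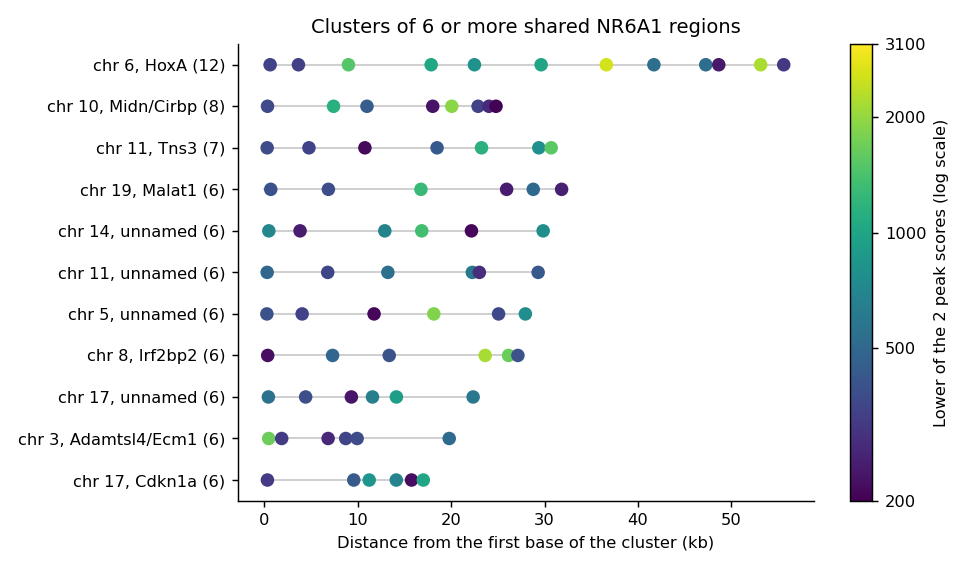
Each row is a cluster of 6 or more regions (chromosome, gene known to lie there or nearby, number of regions). The row named Irf2bp2 is the distant cluster, more than 100 kb from the one at the gene. Dots are regions by distance from the first base of the cluster in kb (x axis), coloured by the lower of the 2 replicates' scores on a log scale. Strong regions (yellow and green) stand among weak ones (dark blue) within the same cluster, and HoxA spans 56.0 kb against 32.1 kb or less for the others.

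Hmga2, an oncofetal chromatin protein gene and a textbook let-7 target, held a compact cluster of 5 regions within 9.28 kb at chr10:119858837-119868111. The region at chr10:119858837-119859656 was at 3100 in both replicates. The region at chr10:119867384-119868111 had 1301.64 and 1571.3. At chr10:119865378-119866571 the replicates parted, with 2532.36 in replicate 1 and 370.87 in replicate 2. The 2 others had 307.71 and 670.17 in replicate 1, with 670.74 and 867.31 in replicate 2. No cluster was named at the other let-7 targets of the preset lists: Igf2bp1, Igf2bp2, Igf2bp3, Lin28a, Lin28b and Nr6a1. None was named either at the classical NR6A1 targets on those lists: Pou5f1, Nanog, Gdf9, Bmp15, Prm1 and Prm2.

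A cluster of 3 lay in the HoxC genes at chr15:102789913-102800100, around Hoxc10 and Hoxc11. Its leading region was 2815 bp wide and had 3100 in replicate 1 and 2712.44 in replicate 2. The next had 1234.94 and 992.74, and the last 1486.9 and 493.28. In replicate 1 all 3 regions were thus above 1000. The HoxB and HoxD genes were also on the preset lists, and no cluster was named at either.

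Csf1, the gene of the macrophage growth factor, had 5 regions at chr3:107535332-107547252 and a further 5 at chr3:107625049-107633010, 77.8 kb away. The nearer cluster had scores from 228.2 to 1224.93 in replicate 1 and from 385.53 to 1676.57 in replicate 2. The farther had scores from 205.98 to 766.74 and from 259.8 to 953.85, so it was a dense group of weak sites, with 5 regions in 7.96 kb.

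In the neighbourhood of Fbn1, which encodes the microfibril protein fibrillin 1, there were 2 clusters with low replicate 1 scores. At chr2:125035488-125044686 the 4 regions were between 217.61 and 562.51 in replicate 1 and between 260.28 and 1212.07 in replicate 2. At chr2:125119521-125131156 the 5 regions were between 232.66 and 917.02 and between 274.5 and 2647.3. Beyond them, toward the growth factor gene Fgf7, the cluster at chr2:125747851-125774489 was among the strongest. Its region chr2:125747851-125749464 had 3100 and 1758.75, and chr2:125755389-125756199 had 2006.23 and 1515.54. At Fgf7 itself, chr2:125856693-125865865, the highest scores were 1108.08 and 573.93.

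Clusters of 3 also lay at Myc, Fosl2, Gadd45b and Smad7. At Myc, which encodes a growth-promoting transcription factor, chr15:61814639-61819607, all scores were modest, from 213.23 to 548.03 in replicate 1 and from 246.08 to 629.71 in replicate 2, and the order of the regions was the same in both. At Fosl2, which encodes a subunit of the AP-1 factor, chr5:32437118-32442528, the middle region led with 1360.58 and 1204.38. At Gadd45b, a stress-induced gene, chr10:80391170-80403871, the last region had 1797.62 and 3100 while the other 2 were below 500 in both. Smad7, the inhibitor of TGF-beta receptor signalling, had a cluster at chr18:75522705-75535746 with 994.69 and 2573.29 as its highest scores.

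Ranked by the median of the lower score, the first cluster was chr9:34790995-34802248, where 2 of 3 regions were at 3100 in both replicates and the other had 549.94 and 2388.72. At chr8:109721711-109733768 all 3 regions were strong, with 1886.7 to 3100 in replicate 1 and 1573.7 to 3100 in replicate 2. Next came chr5:112228178-112240000, with 1 region at 3100 in both, and chr14:32472509-32483590, also with 1. No gene is named at these positions. Of the 10 clusters of 4 or 5 with the most regions per kb, the tightest was chr16:30184812-30189574, with 4 regions in 4.76 kb and highest scores of 1015.92 and 2063.2. At chr1:136911621-136919153, 5 regions in 7.53 kb were all above 900 in replicate 1 but between 285.59 and 1184.49 in replicate 2.

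Sequences of the mm9 regions were not used here. For the genes named at clusters, RefSeq promoters (GRCm38.p6, the 250 bases before the gene's start) were searched instead. Of 27 genes, 22 had an entry, with 26 promoters. Motifs searched on both strands were the NR6A1 direct repeat (AGGTCA repeated with no base between), TCAAGGTCA (the extended form of the single site, which the repeat contains), TGANTCA (AP-1), GGAATG (TEAD) and TGTGGTT (RUNX). They occur in 0.00609%, 0.387%, 6.75%, 12.6% and 4.4% of all 32851 promoters of that length. Among the 26, neither NR6A1 motif and no RUNX motif was matched, AP-1 was matched in 1 and TEAD in 3. The 4 promoters with a match are shown 5′ to 3′ on the strand of the gene, with the match in capitals. They are Hoxa9 (chromosome 6, minus strand), Ecm1 (chromosome 3, minus), Mcl1 (chromosome 3, plus) and Midn (chromosome 10, plus).
Hoxa9: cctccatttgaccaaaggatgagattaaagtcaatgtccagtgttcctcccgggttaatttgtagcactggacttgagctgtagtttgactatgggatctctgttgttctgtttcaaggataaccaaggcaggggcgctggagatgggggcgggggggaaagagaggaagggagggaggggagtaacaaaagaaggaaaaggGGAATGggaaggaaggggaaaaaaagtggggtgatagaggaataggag
Ecm1: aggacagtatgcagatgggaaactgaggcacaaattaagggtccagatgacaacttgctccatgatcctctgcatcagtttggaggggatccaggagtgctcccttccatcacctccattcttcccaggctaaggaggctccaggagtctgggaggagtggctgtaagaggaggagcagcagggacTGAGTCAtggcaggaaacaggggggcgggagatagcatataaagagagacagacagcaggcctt
Mcl1: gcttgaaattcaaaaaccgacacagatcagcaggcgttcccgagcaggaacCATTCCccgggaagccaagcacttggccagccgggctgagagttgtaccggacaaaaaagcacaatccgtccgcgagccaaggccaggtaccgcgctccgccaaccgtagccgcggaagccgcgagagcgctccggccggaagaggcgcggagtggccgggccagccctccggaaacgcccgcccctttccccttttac
Midn: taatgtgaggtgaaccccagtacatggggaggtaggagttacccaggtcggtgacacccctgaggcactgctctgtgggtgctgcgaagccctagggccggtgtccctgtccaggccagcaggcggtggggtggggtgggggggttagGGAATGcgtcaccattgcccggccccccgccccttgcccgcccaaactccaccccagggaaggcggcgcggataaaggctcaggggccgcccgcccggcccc
A match is a run of letters and not a site. Whether a region of the clusters covers any of these bases could not be read, since the regions are on mm9 and the promoters on another build.

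Across all clusters, 221 held 3 regions, 45 held 4 and 15 held 5. The median cluster spanned 11.1 kb (quartiles 7.80 and 13.9), and the shortest 2.13 kb. Together they spanned 3.46 Mb, of which the regions covered 0.854 Mb. The 701 gaps between neighbours had a median of 3159 bp (quartiles 1057 and 5990). Short gaps were the most frequent: 169 or 24.1% were under 1 kb and 34 or 4.85% were 9 kb or more. Pairs of shared regions, joined by the same limit but without a further neighbour, had a like median gap of 3153 bp, and 22.1% were under 1 kb.

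Gaps just inside the limit were 9980 bp on chromosome 13 after chr13:24873621-24874153 and 9918 bp on chromosome 6 after chr6:100659304-100660049. The former region had scores of 205.35 in replicate 1 and 309.79 in replicate 2, the latter 498.85 and 646.69. Just outside were gaps of 10073 bp after chr7:91695020-91695723, with 710.69 and 452.1, and of 10078 bp after chr11:86389203-86390071, with 560.46 and 1388.04. In all, 16 gaps of 10 to 11 kb kept 3 or more shared regions from forming a cluster.

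In replicate 1 the median score of cluster regions was 585 (quartiles 335 and 1117), the lowest 200.65 and the highest 3100. In replicate 2 the median was 559 (quartiles 333 and 1094), the lowest 200.34 and the highest 3193.6. Isolated shared regions, with no shared neighbour within 10 kb, had medians of 512 and 493, and pairs 543 and 545.

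A score of 1000 or more in both replicates was reached by 164 of the 993 cluster regions, or 16.5% (95% Wilson interval 14.3 to 18.95%). Over all shared regions the share was 11.0% (993 of 9009, a number that happens to equal that of the cluster regions). It was 11.6% of the 1902 regions in pairs (10.2 to 13.1%) and 9.96% of the 6114 isolated regions (9.24 to 10.7%). By size of cluster it was 16.0% for clusters of 3 (13.4 to 18.97%), 16.5% for those of 4 or 5 (12.4 to 21.5%) and 21.3% for those of 6 or more (13.6 to 31.9%), and these intervals overlap. The intervals cover counting error over regions only, regions of a cluster are neighbours and not replicates, and scores come from the libraries that chose the members, so the order is not tested. The median of the lower score, at 395 in clusters, 399 in pairs and 362 in isolated regions, differed less than the upper quartile, at 748, 655 and 588.

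**Figure D3:**
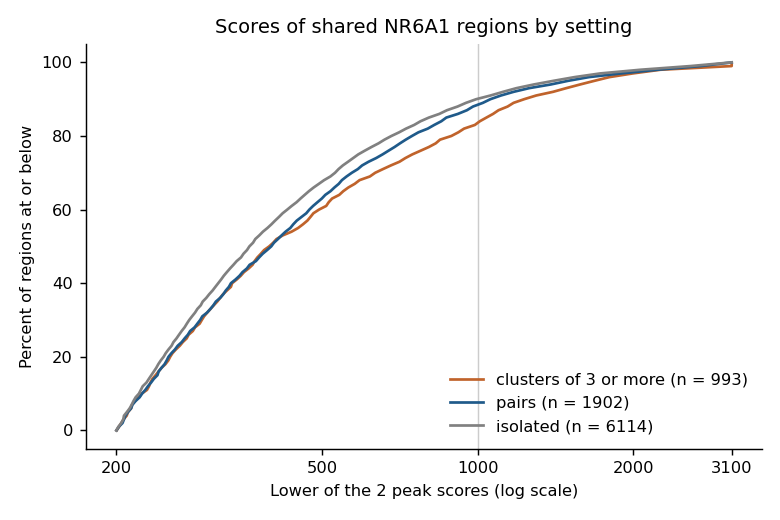
Percent of regions (y axis) whose lower replicate score is at or below the value on the x axis (log scale), for regions in clusters (n = 993), in pairs (n = 1902) and isolated (n = 6114). At the grey line at 1000 the cluster curve is the lowest, with 16.5% of regions at or above it against 11.6% and 9.96%.

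Strong regions were spread over many clusters. A region of 1000 or more in both replicates was present in 136 of the 292 clusters: 114 had 1, 18 had 2 and 4 had 3 or more. In 156 clusters there was none. The ratio of the highest to the lowest score within a cluster was 3.60 in replicate 1 and 3.98 in replicate 2 at the median. At 3100 or more in either replicate were 39 cluster regions or 3.93%, against 3.85% of all shared regions, which is near the background.

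The replicates placed the highest score on the same region in 172 of 292 clusters, or 58.9%. In clusters of 3 this was 134 of 221 (60.6%), in clusters of 4 it was 27 of 45 (60.0%) and in clusters of 5 it was 6 of 15 (40.0%). In pairs, where there are fewer regions to differ on, it was 620 of 951 (65.2%). In clusters of 3 the highest score was on the left, middle or right region in 78, 75 and 68 clusters in replicate 1 and in 67, 80 and 74 in replicate 2, with no position far ahead of the others.

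Across the 993 regions the scores of the replicates had a Spearman rho of 0.47, against 0.41 across pairs and 0.39 across isolated regions. These are correlations across regions of 1 pair of libraries, given without a p-value. The log2 ratio of replicate 1 over replicate 2 had a median of 0.00 and an SD of 1.08 (scores at or above 3100 set equal), and 68.0% of cluster regions were within 2-fold, against 66.3% of all shared regions. Replicate 1 was higher in 494 regions or 49.7%, against 50.4% of all shared regions, replicate 2 was higher in 487, and 12 were at or above 3100 in both. In 45 clusters every region was higher in replicate 1 and in 37 every region was higher in replicate 2, while 210 were mixed. In pairs both regions were higher in replicate 1 in 265 of 951 and in replicate 2 in 265. The mixed clusters included all 11 of 6 or more, where the larger number of regions alone makes a one-sided result rarer.

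**Figure D4:**
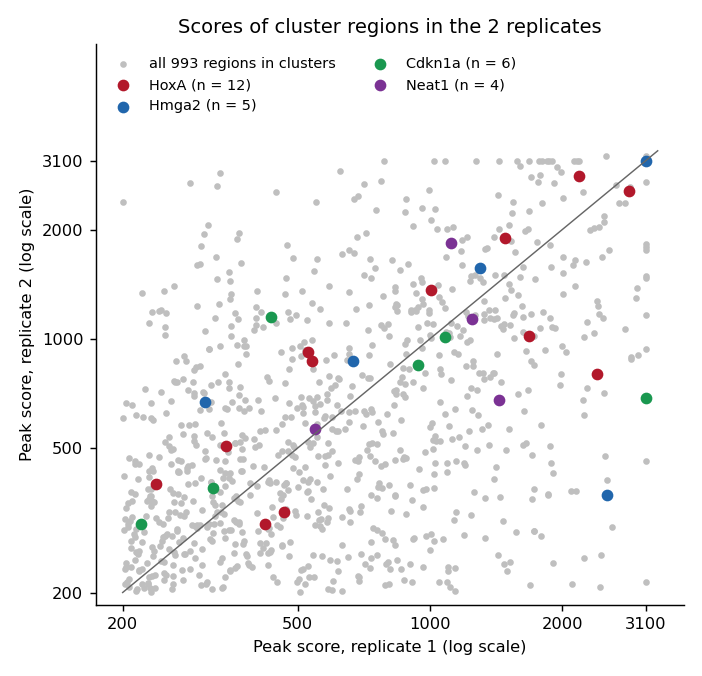
Peak score in replicate 1 (x axis) and replicate 2 (y axis), both on log scales, of the 993 cluster regions (grey) with those at HoxA, Hmga2, Cdkn1a and Neat1 coloured; the line marks equal scores. Points scatter widely on both sides of the line, and the named clusters have regions on each side.

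Regions found in a single list were also present inside the clusters, which the rule did not require. There were 169, of which 76 were of replicate 1 only and 93 of replicate 2 only, in 117 clusters, and 175 clusters had none. Over the gaps, 2.60 Mb in all, that is 64.9 per Mb. In the gaps of pairs it was 49.2 per Mb, in the 10 kb on each side of the clusters 36.3 per Mb (212 regions), and over the autosomes and X of mm9 7.36 per Mb. Clusters with the most were HoxA with 6, chr14:70038755-70065884 with 5 and chr6:100009643-100025501 with 4. By contrast the series as a whole had 12317 regions of replicate 1 only and 7118 of replicate 2 only. The order of the replicates inside clusters was thus the opposite of that in the series, which was not tested. The 10 kb on each side of the clusters had 113 of replicate 1 only and 99 of replicate 2 only, also nearer to equal than the series.

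Cluster regions were wider than other shared regions, with a median of 758 bp (quartiles 645 and 955), against 715 bp in pairs and 701 bp in isolated regions. More than 1 peak of a list was merged into 28 of the 993, or 2.82%, against 2.14% of all shared regions. The widest cluster region was 5404 bp.

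Clusters were found on all 19 autosomes. As a share of shared regions, cluster regions were most frequent on chromosome 19, at 16.5% (13.0 to 20.7%), chromosome 17, at 15.6% (12.4 to 19.5%), and chromosome 4, at 14.4% (11.8 to 17.4%). They were least frequent on chromosome 11, at 6.43% (4.62 to 8.90%), although it holds 2 of the 11 clusters of 6 or more. By count, chromosome 4 had the most clusters, 27, and chromosome 12 the fewest of the autosomes, 5. Per 100 Mb, chromosome 19 had the most, 27.7, against 17.3 on chromosome 4 and 4.12 on chromosome 12. On chromosome X none of 101 shared regions was in a cluster, which allows a share of up to 2.97% by the limit that 3 counts set. The upper end of the Wilson interval was 3.66%. Regions enter clusters as groups of neighbours and not singly, so these limits and the intervals above are likely too narrow. X had 0.606 shared regions per Mb, against 1.67 on chromosome 12 and 5.74 on chromosome 19, and the part of this density in the count of clusters was not tested. In 17 places a cluster had another within 100 kb, among them Malat1 and Neat1, Mcl1 and Ecm1, and Csf1.

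**Figure D5:**
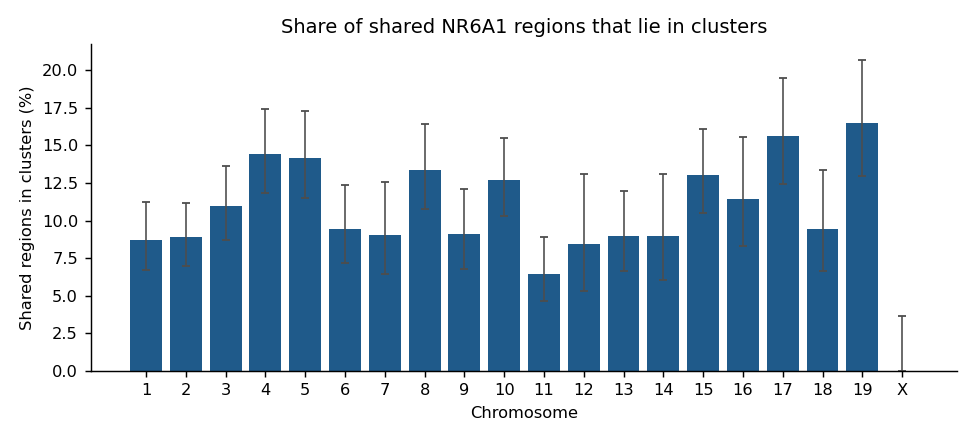
Percent of the shared regions on each chromosome that lie in clusters of 3 or more (bars, y axis) for the 19 autosomes and X (x axis), with 95% Wilson intervals. The intervals cover counting error only and treat regions of a cluster as separate. Chromosomes 19 and 17 are the highest, 11 is the lowest autosome and X is at 0 of 101.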

How the data were processed

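Peak lists of 2 NR6A1 ChIP-seq replicates were used, 1 per sample, so peaks were called per sample. The submitters' processing notes list Bowtie 0.12.7, MACS and mm9 with no role for any of them; the version of MACS, the control library and the threshold are not given in the sources used here. The deposited score of each peak is the authors' value, is not scaled between libraries, and serves to rank and filter peaks within a list; a shared region takes the score of its highest peak in each replicate. No peak ended beyond the mm9 chromosome lengths in GenomeInfoDb. Lists were merged in Python 3.11.15 (numpy 2.4.6, pandas 2.3.3), with the same number of regions from bedtools 2.31.1, and correlations used scipy 1.17.1. Shares carry 95% Wilson intervals, and a share of 0 the limit that 3 counts set. On simulated lists 289 of 289 planted clusters were found. These clusters were planted to be found by the rule, so the result checks the code only. It gives no rate of recovery for the real lists, where some gaps lie close to the limit.

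Clusters were named by rule: all of 6 or more regions, the 10 densest of 4 or 5, the 10 highest by median lower score, and those at genes of preset lists; of the densest and highest, a part is given in the text. The members and lists were chosen with earlier results of these data known. Without an mm9 annotation or sequence, gene lists were not counted, and the planned motif search in regions and assignment to the nearest start were not run. RefSeq tables of GRCm38 served for names, gene order and promoter letters.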

Additional observations from a re-analysis of the deposited data

How the results depend on the processing

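Of 71 values under an alternative for 7 results, 28 stayed within the limit set for them (1.5 times for a count, the Wilson interval for a share, the difference between replicates as an SD for a median) and 43 moved; counts and shares cannot reverse. The 993 regions became 549 with midpoints within 100 bp, 156 in the upper 50% of each list by score, 641 with equal list sizes, 452 and 1828 with gaps of at most 5 and 20 kb, and 2895 and 330 with at least 2 and 4 regions. The 292 clusters became 165, 47, 189, 137, 503, 1243 and 71 under the same 7 settings in that order. Their share of shared regions, 11.0% as reported, became 7.33%, 3.85%, 8.51%, 5.02%, 20.3%, 32.1% and 3.66%, and 9.81% with a 50% reciprocal overlap. The 169 single-list regions inside became 96, 15, 99, 45, 488, 345 and 59. With 1 replicate left out, chains of all peaks of the other list gave 3199 to 4974 regions in 880 to 1354 clusters, 19.8 to 23.1% of the list, with a median width of 568 to 650 bp. The share of cluster regions with both scores at 1000 or more was 13.3% with at least 2 regions, 19.5% with equal list sizes and 34.0% in the upper 50%. The median lower score was 479 with equal list sizes and 793 in the upper 50%, where the median width was 882 bp. Equal list sizes and the upper 50% drop low-scoring peaks, so their shares and medians cannot be set against those of all shared regions in the full lists. By construction, a wider gap or smaller size adds regions and shorter lists remove them; the cause was not tested otherwise. No paired analysis was possible because no list was used for the vector libraries. Reads per peak are not in the lists, so a region that a list lacks may have been narrowly below the threshold used.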
